A study of Mus musculus with 21 samples.

Results

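The SOX transcription factors of the developing nervous system are followed here through every deposited list of chromatin regions from the ganglionic eminences of mouse embryos. The members are 9 genes: Sox1, Sox2 and Sox3 of subgroup B1, Sox21 of subgroup B2, Sox4 and Sox11 of subgroup C, Sox5 of subgroup D, and Sox8 and Sox9 of subgroup E. They stand among 20953 protein-coding genes with a curated RefSeq transcript on chromosomes 1 to 19 and X. A peak or region was taken as belonging to a member when its summit lay in the gene body or within 100 kb of it as RefSeq annotates it on mm10 (GRCm38.p6). No measured value entered that rule. The 9 windows spanned 2789.8 kb together and held 370 of 91480 ChIP peaks and 4 of 822 accessibility regions, which is 374 of 92302 entries.

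The ganglionic eminences are the embryonic source of the basal ganglia and of most forebrain interneurons, and all mice were of the CD1 strain. NuRD is a complex that remodels nucleosomes and removes acetyl groups from histones. Binding of 6 of its subunits was profiled by ChIP-seq in whole tissue at E13.5, with 1 library per subunit and 3 input libraries. Accessibility was profiled by ATAC-seq at E12.5 in wild-type (WT) embryos and in Dlx1/2 -/- (KO) embryos, which lack the homeodomain factors DLX1 and DLX2. Per the labels, FTpos cells came from the ventricular zone (VZ), where progenitors divide, and FTneg cells from the zones outside it (subventricular and mantle). Each of the 4 groups had 3 embryos. Each accessibility list names the genotype in which the region was more open over the 3 embryos together, so that "KO-higher FTneg" means more open in KO than in WT cells of the subventricular and mantle zones. No list has a replicate, the depth behind each is unknown, and differences below carry no test. In such mixed tissue a change in the share of a cell type and a change per cell cannot be told apart.

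SOX proteins bind the minor groove of DNA through an HMG box and act with partner factors. SOXB1 proteins hold neural progenitors in the cycling state, SOX21 opposes them, SOXC proteins act as neurons begin to differentiate, SOX5 has no activation domain of its own and works through other factors, and SOXE proteins act in neural stem cells and in the glial lineage. In NuRD, CHD4 is the remodelling ATPase, HDAC1 and HDAC2 are deacetylases, MBD3 is a scaffold of the methyl-binding domain family, and RBBP4 and RBBP7 bind histones.

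Across the series the lists ranged from 5517 peaks (HDAC2-labelled) to 29762 peaks (RBBP4). For 3 samples the deposited list carries another subunit's name: HDAC1 on the list of the CHD4 sample, HDAC2 on that of the HDAC1 sample, and CHD4 on that of the HDAC2 sample. These lists are called here by the sample label (CHD4-labelled and so on), and the files did not settle the mismatch. The labels give 1 shared input to CHD4 and MBD3, another to HDAC1 and HDAC2, and the remaining one to RBBP4 and RBBP7. As a check of genotype, 5 WT-higher regions in each fraction had their summit between Dlx1 and Dlx2, with areas of 3264 to 21511 in FTneg and 2239 to 17969 in FTpos, and 0 KO-higher regions did.

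Promoter sequences were found in the RefSeq promoter table (GRCm38.p6) for 7 of the 9 members; Sox3 and Sox9 had no entry. The 250 bases before the start are printed for 5 of them, because these cover the span of NuRD occupancy among the members. Sox11 lay under peaks of all 6 lists, Sox4 under 4, Sox2 and Sox1 under 3 each, and Sox5 under none. The Sox5 start used here lies inside the annotated gene, and 5 lists had a peak at the upper annotated end of that gene. Capitals mark matches to 4 motifs searched on both strands: TAATTA, a core bound by homeodomain factors such as DLX; ACAATG and ACAAAG, which fit the HMG box of SOX proteins; and CAGCTG, an E-box bound by bHLH factors.
Sox11 (chr12:27342719-27342968, minus strand): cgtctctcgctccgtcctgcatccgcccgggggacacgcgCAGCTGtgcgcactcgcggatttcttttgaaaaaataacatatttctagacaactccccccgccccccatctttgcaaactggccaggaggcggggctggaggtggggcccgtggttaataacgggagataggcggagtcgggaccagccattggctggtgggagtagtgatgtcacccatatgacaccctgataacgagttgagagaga
Sox4 (chr13:28953700-28953949, minus strand): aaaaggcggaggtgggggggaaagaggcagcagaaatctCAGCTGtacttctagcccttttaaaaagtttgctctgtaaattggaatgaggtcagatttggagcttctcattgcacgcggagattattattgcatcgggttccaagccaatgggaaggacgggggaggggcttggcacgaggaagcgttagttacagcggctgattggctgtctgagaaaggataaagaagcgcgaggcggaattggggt
Sox2 (chr3:34649745-34649994, plus strand): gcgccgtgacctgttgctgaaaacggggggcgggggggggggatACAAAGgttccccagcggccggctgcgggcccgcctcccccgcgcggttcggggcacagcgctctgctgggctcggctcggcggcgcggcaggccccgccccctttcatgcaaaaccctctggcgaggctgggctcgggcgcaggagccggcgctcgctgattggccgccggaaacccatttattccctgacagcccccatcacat
Sox1 (chr8:12395269-12395518, plus strand): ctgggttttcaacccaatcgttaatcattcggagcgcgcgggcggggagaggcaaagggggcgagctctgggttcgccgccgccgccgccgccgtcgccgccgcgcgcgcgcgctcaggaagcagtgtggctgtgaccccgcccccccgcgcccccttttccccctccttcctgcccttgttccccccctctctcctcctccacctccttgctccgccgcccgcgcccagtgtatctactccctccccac
Sox5 (chr6:143947107-143947356, minus strand): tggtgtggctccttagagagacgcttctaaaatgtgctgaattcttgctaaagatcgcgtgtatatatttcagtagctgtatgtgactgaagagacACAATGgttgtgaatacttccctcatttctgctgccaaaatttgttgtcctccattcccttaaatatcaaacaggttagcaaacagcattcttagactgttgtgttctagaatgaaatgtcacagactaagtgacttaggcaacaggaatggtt
The Sox11 and Sox4 promoters shared the E-box at nearly the same place, 210 and 211 bases before the start, a motif that 12.3% of 20414 promoters of this length hold. Sox2 carried ACAAAG (14.8% of promoters) and Sox5 carried ACAATG (8.83%), while TAATTA (4.23%) was in 0 of the 7. The promoters also differed in composition. GC content was 71.2% in Sox1 and 72.0% in Sox2, 58.0% in Sox11, 50.8% in Sox4 and 39.6% in Sox5, against a median of 56.0% over all promoters. CpG dinucleotides numbered 29 in Sox1, 27 in Sox2, 17 in Sox11, 11 in Sox4 and 3 in Sox5, against a median of 10. The most CpG-rich of these 5 were thus not the ones under the most lists. The Sox21 and Sox8 promoters held none of the motifs, with GC contents of 65.2% and 65.6%, and lay under 2 and 4 lists.

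NuRD peaks were dense around most of the members, and most of all around Sox1 and Sox2. Over the 6 lists together, the windows of Sox1 and Sox2 held 36.3 and 34.6 peaks per 100 kb, and those of Sox4, Sox21, Sox9, Sox8 and Sox11 held 18.1, 14.2, 12.6, 11.2 and 9.59. Sox5 had the most peaks, 80, but over a window of 1154 kb, which gives 6.93 per 100 kb, and Sox3 was lowest at 5.44. The median over all genes was 4.87 (quartiles 1.88 and 8.62), and all 9 members lay above it. Sox1 and Sox2 stood at the 99.98 and 99.97 percentiles of all genes, whereas Sox5 and Sox3 stood at 65.4 and 54.9. These densities count a place more than once when several lists, or several peaks of a list, fall there. Merged as described below, the peaks made 18 regions at Sox1 and 17 at Sox2. Sox5 had 35 such regions in its long window, and the other members had 6 to 12. With 1 library per list there is no error on these densities.

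**Figure D1:**
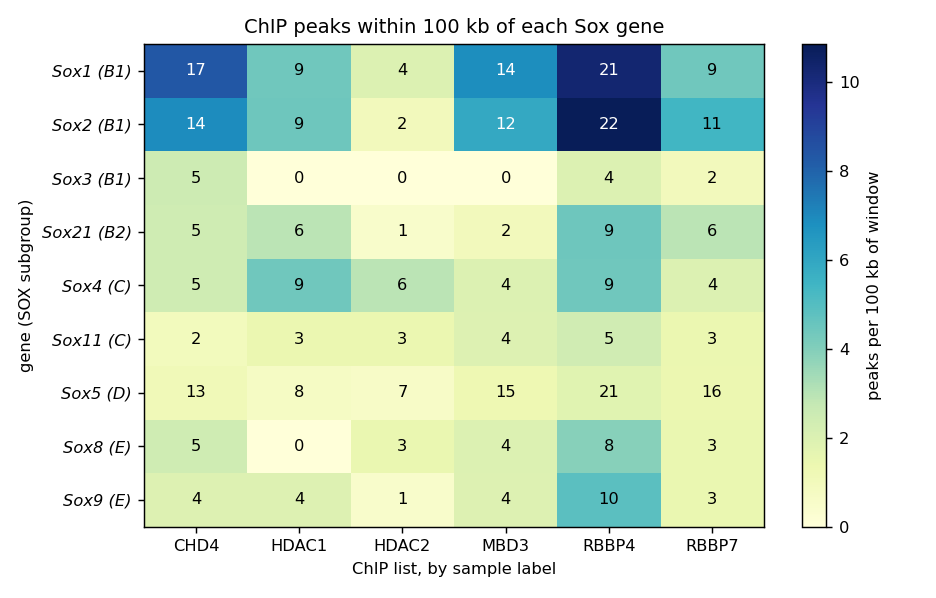
NuRD subunit peaks within 100 kb of the body of each Sox gene, by list. Colour gives the peaks per 100 kb of window, and the number in each cell is the count of peaks. The RBBP4 list, the longest, gave the most peaks in every window but that of Sox3, level with the HDAC1-labelled list at Sox4, and Sox3 had none from the HDAC1-labelled, HDAC2-labelled and MBD3 lists.

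The peaks of the 6 lists were next merged into regions wherever they overlapped by at least 1 bp. The windows held 120 merged regions, of which the member was the nearest gene for 109 and 46 overlapped a member's gene body. Regions of 3 or more lists were about as common as elsewhere, at 33.3% of the Sox regions and 31.3% of all 38820 regions. Regions of at least 5 lists numbered 19 of the 120, against 10.1% of all regions, and 6 of the 120 held all 6 lists, against 3.93%. HDAC2-labelled peaks were in 24 of the 120 Sox regions and in 13.4% of all regions, and MBD3 peaks in 44 and 27.5%, while RBBP4 peaks were in 77 and 72.5%. CHD4-labelled peaks were in 59 and 42.4%, and RBBP7 peaks in 47 and 36.5%. The HDAC1-labelled list, like RBBP4, had a lower share in the Sox regions, with 22 of the 120 (18.3%) against 23.6%. Regions with all 6 lists lay in the windows of 6 of the 9 members (Sox1, Sox2, Sox21, Sox4, Sox11 and Sox5), 1 in each, against 16.4% of gene windows. Without Sox5 and its window of 1154 kb, 5 of 8 members had one. The count of such regions was 2 in place of 6 with a −log10 q of at least 10, and 2 when the other lists needed a summit within 250 bp of a summit of the shortest list. In a merged region a wide peak can join peaks that do not overlap each other, and the positions of summits are therefore given with each.

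Sox1 and Sox2, the SOXB1 genes that mark neural progenitors, had peaks in several clusters across their windows. The Sox1 window (gene body chr8:12395519-12399555) held 17 CHD4-labelled, 9 HDAC1-labelled, 4 HDAC2-labelled, 14 MBD3, 21 RBBP4 and 9 RBBP7 peaks. Peaks of 5 lists, all but HDAC2-labelled, reached within 1 kb of the Sox1 start. The strongest was a wide CHD4-labelled peak of fold enrichment 11.1, whose summit lay 3161 bp after the start. Sox4 and Sox11 were the other members with at least 5 lists at the start, which 10.6% of genes had. The all-6 region of Sox1 was distal, at chr8:12429893-12431755 in the long non-coding RNA gene Sox1ot, with summits 34864 to 35796 bp after the Sox1 start. Its fold enrichments were 5.42 CHD4-labelled, 4.20 HDAC1-labelled, 5.67 HDAC2-labelled, 5.81 MBD3, 6.43 RBBP4 and 6.39 RBBP7. The CHD4-labelled and HDAC1-labelled values were below their list medians of 5.64 and 5.22, and the others were above theirs. The HDAC2-labelled peak ranked 664 of 5517, and the HDAC1-labelled peak 9515 of 11288. Sox1 thus had its strongest CHD4-labelled signal on the gene and its 6-list site well downstream of it.

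Around Sox2 (chr3:34649995-34652461) the numbers were close to those of Sox1, with 14 CHD4-labelled, 9 HDAC1-labelled, 2 HDAC2-labelled, 12 MBD3, 22 RBBP4 and 11 RBBP7 peaks. At the Sox2 start 4 lists had a peak: CHD4-labelled at 5.53, HDAC1-labelled at 5.48, RBBP4 at 5.57 and RBBP7 at 6.14. These are near the medians of their lists, which were 5.64, 5.22, 4.85 and 6.20. The stronger site lay far upstream, at chr3:34558664-34564654, in a region overlapping the non-coding gene Sox2ot. There the strongest summits of the 6 lists fell within 139 bp of each other, at -90788 to -90649 bp from the Sox2 start. The RBBP4 peak, at 14.6, ranked 83 of 29762, the MBD3 peak reached 9.10 and the RBBP7 peak 11.6, and CHD4-labelled, HDAC1-labelled and HDAC2-labelled peaks reached 7.21, 5.96 and 5.78. At Sox2, then, the distal site exceeded the promoter in each of the 4 lists that had a peak at both.

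Sox3, the X-linked SOXB1 gene (chrX:60891366-60893430), differed from its relatives in having few peaks. Its window held 5 CHD4-labelled, 4 RBBP4 and 2 RBBP7 peaks and 0 of the other 3 lists. No Sox3 region held more than 2 lists, and the strongest peaks were 5.20 CHD4-labelled, 4.99 RBBP4 and 6.51 RBBP7. These are near the medians of their lists, which were 5.64, 4.85 and 6.20. Genes on the X chromosome as a whole had few peaks: the median over 905 of them was 0.821 per 100 kb, against 5.10 on autosomes. Among those X-linked genes Sox3 stood at the 96.9 percentile.

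Sox21, the SOXB2 gene (chr14:118233233-118237030), had the strongest RBBP4 and RBBP7 peaks of any member. The window held 5 CHD4-labelled, 6 HDAC1-labelled, 1 HDAC2-labelled, 2 MBD3, 9 RBBP4 and 6 RBBP7 peaks. A single merged region, chr14:118229307-118238614, held all 6 lists and ran from beyond the 3' end of the gene to beyond its start. Just past the 3' end the RBBP4 peak had a fold enrichment of 17.3 and ranked 31 of 29762, and the RBBP7 peak had 20.6 and ranked 25 of 14918. The HDAC1-labelled, HDAC2-labelled and MBD3 peaks there reached 7.69, 4.57 and 7.85. The strongest summits of these 5 lists lay 6592 to 6686 bp after the start, whereas the CHD4-labelled peak, at 12.2 and 9308 bp wide, covered the whole region with its summit 2532 bp after the start. The peaks of these lists within 1 kb of the start were weaker, with 5.32 HDAC1-labelled, 7.11 RBBP4 and 5.08 RBBP7. Only the RBBP4 peak among them overlapped the start itself. That RBBP4 peak had its summit 1798 bp after the start. In the 5 lists other than CHD4-labelled, the strongest peak of this region thus lay on the 3' side of Sox21 and not at its start.

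The SOXC genes Sox4 and Sox11, which act in newborn neurons, had peaks of 5 and 6 lists at the start. At Sox11 (chr12:27334268-27342718) all 6 lists had a peak within 1 kb of the start, which was so for 1 of 9 members and 3.25% of all genes. With a −log10 q of at least 10 it was so for 0 members, as the HDAC2-labelled peaks at the Sox11 start had 8.97 and 8.41. The MBD3 peak there, at 16.0, ranked 50 of 11721, and the HDAC1-labelled peak, at 12.3, ranked 27 of 11288. RBBP4 reached 7.28, RBBP7 6.12 and HDAC2-labelled 4.27. The CHD4-labelled peak, at 13.4 and 8030 bp wide, spanned the start but had its summit 3022 bp after it, within the gene. Summits of the RBBP4, RBBP7 and MBD3 peaks lay at -240, -264 and -359 bp from the start, on or just beyond the promoter printed above. The HDAC1-labelled and the stronger HDAC2-labelled summits lay 284 and 287 bp after it. The window held 20 peaks in all, of which 8 lay in merged regions that did not overlap the gene body. The strongest RBBP4 and RBBP7 peaks were among these, at 7.53 and 7.73 in a region 14402 bp upstream (chr12:27357120-27357936) that also held an MBD3 peak of 3.04. At Sox11 the strongest peaks of the other 4 lists but not of RBBP4 and RBBP7 were thus on or at the start of the gene.

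Sox4 (chr13:28948919-28953699) had 5 lists at the start, all but RBBP7. The CHD4-labelled peak reached 13.4, with its summit 1237 bp after the start. The others were 5.96 HDAC1-labelled (summit 1042 bp after the start), 3.74 HDAC2-labelled, 4.84 MBD3 and 6.52 RBBP4. All 6 lists met upstream instead, at chr13:28957857-28960029, with the strongest summits at -6059 to -4466 bp from the start. The HDAC1-labelled peak there had a fold enrichment of 9.52 and ranked 139 of 11288, and the other lists reached 8.23 CHD4-labelled, 3.70 HDAC2-labelled, 5.55 MBD3, 7.53 RBBP4 and 6.60 RBBP7. With 6 HDAC2-labelled peaks among 37, the Sox4 window had more from that list than any other member but Sox5, which had 7. The strongest CHD4-labelled peak lay on the gene at both SOXC genes, while the strongest HDAC1-labelled peak lay at the start of Sox11 and upstream of Sox4.

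Sox5, the SOXD gene (chr6:143828425-144782287), is the only long member, and its peaks were spread through the gene. The window held 13 CHD4-labelled, 8 HDAC1-labelled, 7 HDAC2-labelled, 15 MBD3, 21 RBBP4 and 16 RBBP7 peaks. No list had a peak at the start given by the promoter table, which was so for 1 of 9 members and for 41.1% of genes. That start lies inside the annotated gene. At the upper annotated end, position 144782287, 5 lists had a peak, with 8.45 CHD4-labelled, 5.88 HDAC1-labelled, 2.96 HDAC2-labelled, 4.37 MBD3 and 6.94 RBBP4. The all-6 region lay within the gene body at chr6:144251051-144252711, where the strongest summits of the 6 lists fell within 248 bp of each other. It was led by RBBP7 at 15.2 (rank 176 of 14918) and RBBP4 at 13.0 (rank 170 of 29762), with 8.68 MBD3, 5.89 HDAC2-labelled, 5.72 CHD4-labelled and 4.78 HDAC1-labelled. By rank within its own list, the RBBP4 peak stood highest both here (top 0.571%) and at the distal Sox2 site (top 0.279%). RBBP7 came next here (top 1.18%), while at the Sox2 site MBD3 (top 3.35%) stood above RBBP7 (top 4.73%). In the Sox5 region the CHD4-labelled enrichment was near its list median of 5.64, and the HDAC1-labelled enrichment was below its median of 5.22. At the Sox2 site both were above these medians.

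The SOXE genes Sox8 and Sox9, known for their part in stem cells and glia, had peaks of 4 lists each at the start and no region of all 6 lists. At the Sox8 start (chr17:25565893-25570686) these were 5.84 CHD4-labelled, 3.40 HDAC2-labelled, 5.85 MBD3 and 4.74 RBBP4. The Sox8 region with the most lists, 5, lay 3484 bp from the body at chr17:25561420-25562409 and reached 12.9 in RBBP7 and 10.5 in RBBP4. The HDAC1-labelled list had 0 peaks in the whole Sox8 window, as in that of Sox3. At Sox9 (chr11:112782210-112787757) a region over the gene, chr11:112781448-112788470, held 4 lists, with 7.94 CHD4-labelled, 7.0 HDAC1-labelled, 4.0 MBD3 and 6.30 RBBP4. Since no start was listed for Sox9 and Sox3, a peak at either annotated end was counted for these genes.

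Counted by list, a peak at the start was found in 8 of 9 members for the CHD4-labelled list (47.6% of all genes), 6 for HDAC1-labelled (29.5%) and 3 for HDAC2-labelled (10.6%). The MBD3 list had one in 5 members (24.9%), RBBP4 in 8 (49.4%) and RBBP7 in 4 (13.1%). Each list thus reached a larger share of the members than of all genes, with only 9 members behind each share.

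**Figure D2:**
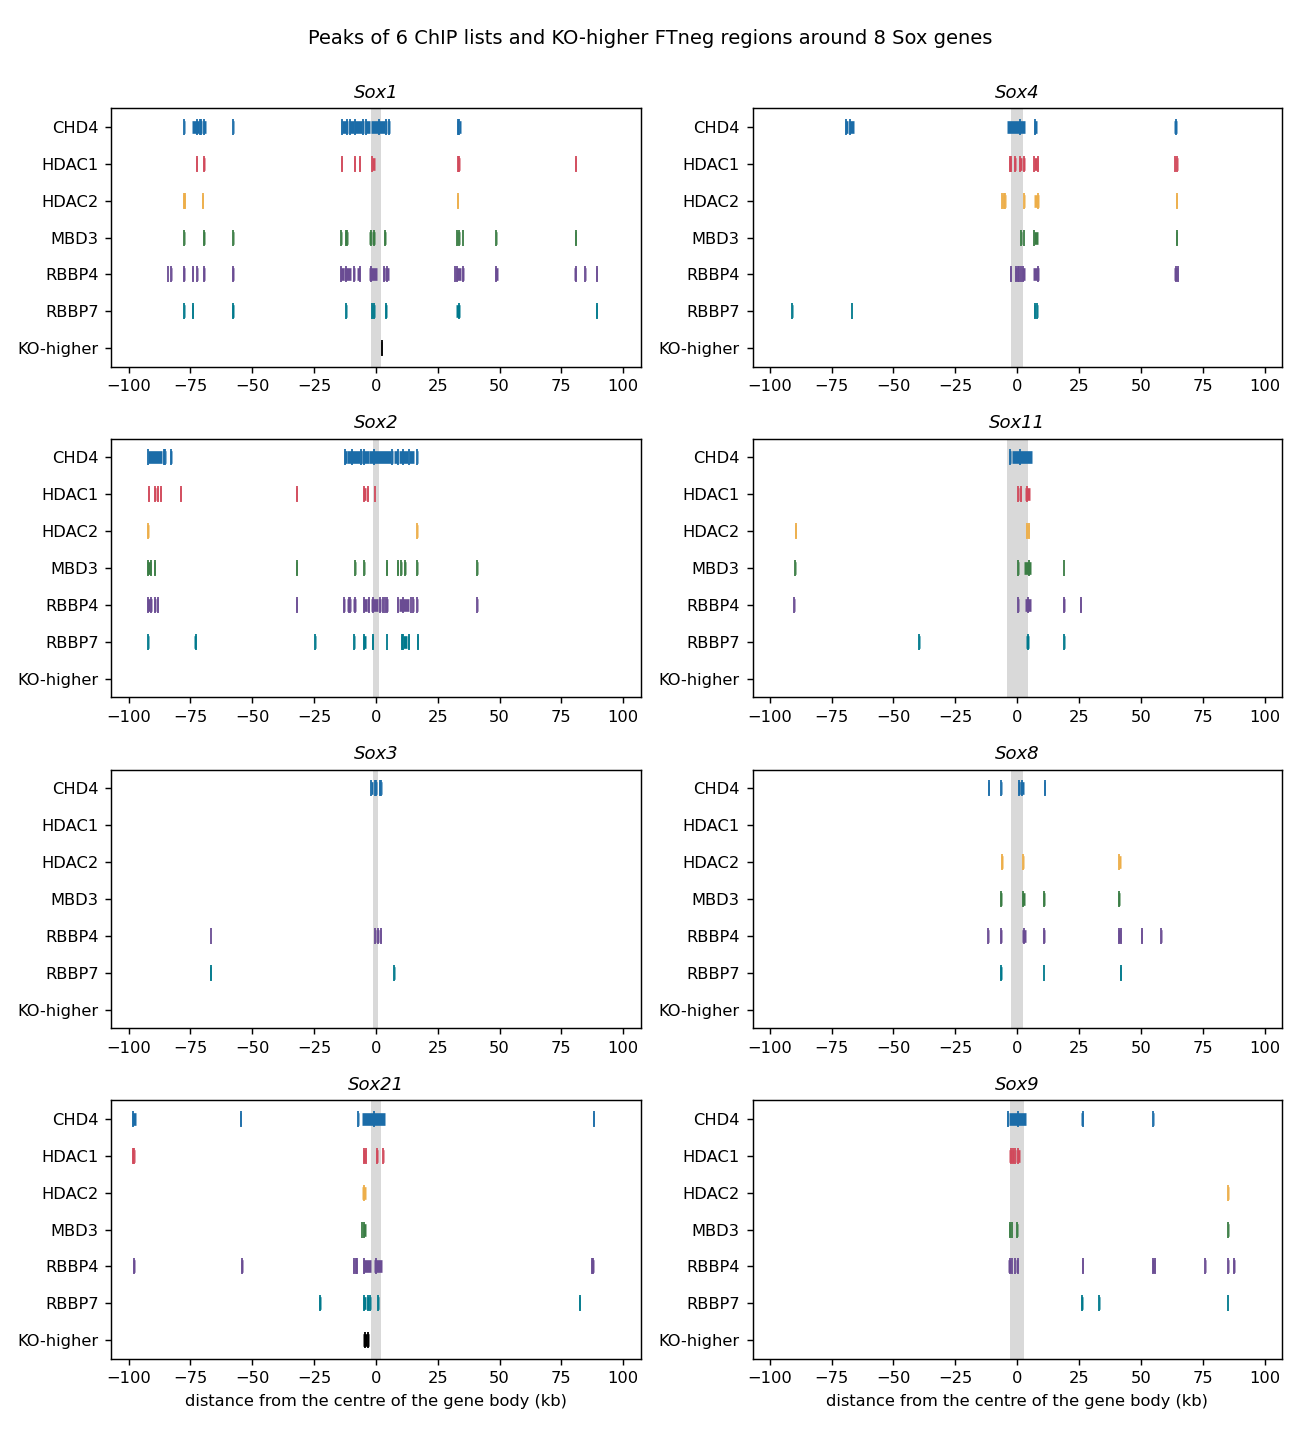
Positions of NuRD peaks and of accessibility regions in the windows of the 8 Sox genes other than Sox5, in kb from the centre of the gene body, with 1 row per list and the gene body shaded. The peaks of Sox1 and Sox2 form several clusters, and 8 of the 20 of Sox11 lie in merged regions off the gene.

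Peaks of the CHD4-labelled list spread over whole Sox genes. The gene bodies of Sox1, Sox2, Sox21, Sox4 and Sox9 were covered over 100% of their length, which is 5 of 9 members against 0.157% of all genes (33 genes). Among the 6570 genes no longer than Sox11 the share was 0.502%, and Sox5 is longer than that. Sox11 was covered over 84.4%, Sox8 over 40.2%, Sox3 over 36.8% and the long Sox5 over 1.17%. The CHD4-labelled peaks on these genes were 9308 bp wide at Sox21, 8866 bp at Sox2, 8030 bp at Sox11, 7077 bp at Sox4, 6851 bp at Sox9 and 5684 bp at Sox1, whereas the median width in that list was 635 bp. Of the 70 CHD4-labelled peaks in the Sox windows, 13 were at least 2.5 kb wide, against 3.26% of the list, and 6 of the 109 RBBP4 peaks were, against 1.3%. RBBP4 peaks covered 80.9% of Sox2, 75.9% of Sox21 and 59.6% of Sox1, but no member in full, although that list covered 31 other genes in full. This description was made after the widths had been seen.

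**Figure D3:**
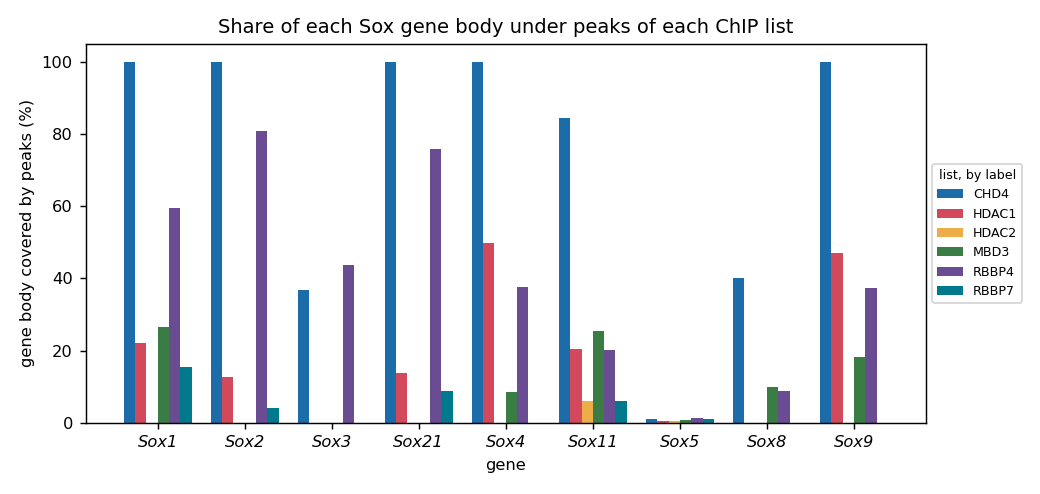
Share of each Sox gene body, in percent, covered by the peaks of each ChIP list. The CHD4-labelled list covers 5 members in full and Sox11 over 84.4%, and only the CHD4-labelled list reaches 100% at a member.

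Loss of DLX1 and DLX2 went with more open chromatin at 4 places in the Sox windows, all in FTneg cells. The KO-higher FTneg regions fell to Sox21 (2 regions), Sox1 (1) and Sox5 (1), so that 3 of 9 members had one, against 5.46% of gene windows. With an area of at least 1000, 1 region was left, at Sox21. Having at least 2, as Sox21 did, was found for 0.539% of gene windows. Among 1055 genes alone in their window, 9.10% had a KO-higher FTneg region. Of the 7 members alone in theirs, Sox1 and Sox5 had one, and Sox21 is not among these 7. Among the 6570 genes no longer than Sox11 3.52% had one, as did 2 of the 8 members without Sox5. The other 3 accessibility lists had 0 regions in the Sox windows: WT-higher FTneg (0.31% of gene windows), KO-higher FTpos (0.21%) and WT-higher FTpos (0.205%). The Sox genes thus entered the accessibility data in 1 direction and in 1 fraction, although the other lists are short, with 53, 12 and 33 regions.

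The strongest of the 4 was at Sox21, chr14:118229739-118231374, 1636 bp wide. Its area under the −log10 p curve, the authors' score, was 1949, which ranked 16 of 724, against a list median of 703. This region coincided with the 3' site described above. The strongest summits of the HDAC1-labelled, HDAC2-labelled, MBD3, RBBP4 and RBBP7 lists lay at -167 to -73 bp from its own summit, a weaker HDAC1-labelled peak of 4.13 had its summit at 477 bp, and the CHD4-labelled peak covered it. A weaker KO-higher FTneg region followed closer to the gene, chr14:118231530-118232348, with an area of 666 (rank 407). It overlapped the CHD4-labelled and RBBP4 peaks and a separate RBBP7 peak of 6.07. The place with the highest RBBP4 and RBBP7 enrichment near any member was thus also that of the KO-higher region with the highest area in the Sox windows.

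The Sox5 region, chr6:144503164-144503820, lay inside the gene with an area of 792 (rank 275) and overlapped peaks of 5 lists, all but RBBP7. Their fold enrichments were 8.23 CHD4-labelled, 5.60 HDAC1-labelled, 4.59 HDAC2-labelled, 6.24 MBD3 and 8.99 RBBP4. It was not the all-6 region of Sox5, which had no accessibility region. The Sox1 region, chr8:12399738-12400154, lay just past the end of the gene with an area of 531 (rank 645), close to the minimum of 500 that the authors kept. It overlapped only the wide CHD4-labelled peak of 11.1 over the Sox1 gene, and no ChIP summit lay inside it. All 4 Sox regions thus overlapped at least 1 NuRD peak, as did 71.5% of the list, 2 of the 4 overlapped at least 5 lists, as did 21.5%, and 1 of the 4, at Sox21, overlapped all 6, as did 13.1%. These shares rest on 4 regions.

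**Figure D4:**
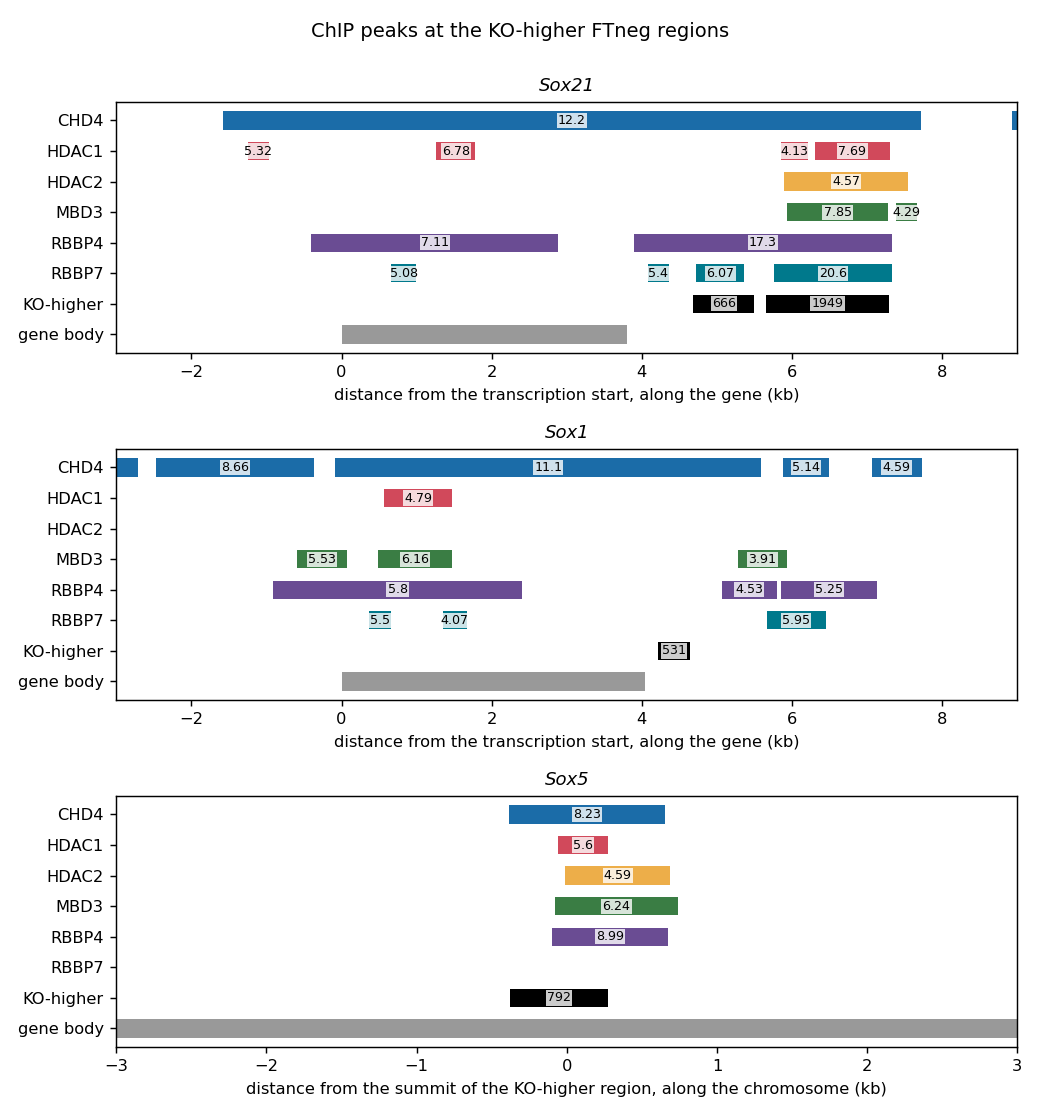
The KO-higher FTneg regions at Sox21, Sox1 and Sox5 with the NuRD peaks around them, by distance in kb, where bars span each peak and the numbers give fold enrichment (ChIP lists) or area (KO-higher). At Sox21 the region of area 1949 sits on the RBBP4 and RBBP7 peaks of 17.3 and 20.6.

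The members were set beside 10 other Sox genes and beside 14 partners and targets of SOX proteins. Median peak density was 12.6 per 100 kb in the 9 members, 9.99 in the other Sox genes and 15.5 in the partners and targets. An all-6 region lay in the window of 6 of 9 members, 4 of 10 other Sox genes and 9 of 14 partners and targets. All 6 lists were at the start of Sox12 among the other Sox genes, and of Fabp7, a glial fatty acid binding protein, and Pou3f1, a POU factor, among the partners. KO-higher FTneg regions lay in the windows of 3 members, of 4 other Sox genes (Sox6, Sox10, Sox13 and Sox18) and of 3 partners and targets (Hes1, Pax6 and Pou3f2). No test of a difference between these lists was made.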

How the data were processed

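ChIP-seq (6 NuRD subunits, 1 library each) and ATAC-seq (3 embryos per genotype and fraction) were used as deposited lists. The submitters' processing notes name the build mm10 and MACS2 2.2.7.1, Genrich, BWA, deepTools and SAMtools 1.10, and their settings are not stated in what was used here. The fold enrichment of each ChIP peak is a ratio at the summit, computed by the authors' peak caller against input, and its −log10 p and −log10 q were deposited with it. An accessibility region has as its score the area under the −log10 p curve, deposited by the authors, who kept areas of at least 500. These per-peak values are the authors' and only describe or rank peaks within a list.

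From the files, summits were assigned to windows of 100 kb, starts were given a margin of 1 kb, and peaks of the 6 lists were merged where they overlapped by at least 1 bp (Python 3.11.15, pandas 2.3.3). Starts and strand came from the RefSeq promoter table and, where it had no entry, either annotated end was used. Exons and introns could not be told apart. Gene percentiles rank all 20953 genes. The window assignment was tested on simulated data. Samples were grouped by the labels, depth was not used, and no replicate allowed a test. Named genes were the members, every all-6 region, the region with the most lists in each window and every accessibility region; genes of like pattern are the 3 nearest to a member in log2(peaks + 1) over the 6 ChIP lists, given for the members tied with 1 all-6 region each, and 1 of these genes is not reported here. The members and lists were chosen with earlier results of these data known.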

Additional observations from a re-analysis of the deposited data

How the results depend on the processing

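No paired analysis was possible because each result comes from combined lists without a test. Of 29 alternative values, 17 stayed within 1.5 times of the reported value and 12 did not. With a −log10 q of at least 10, the ChIP peaks in the windows fell from 370 to 165, the all-6 regions from 6 to 2 and the members with all 6 lists at the start from 1 to 0. Cutting each list to its 5517 strongest peaks left 142 peaks. Requiring summits within 250 bp left 2 all-6 regions, and leaving out the shortest list gave 11 regions of the other 5. Assigning by nearest gene at any distance gave 12 all-6 regions, 7 KO-higher FTneg regions, 7 of them with a ChIP peak, and 1 WT-higher FTneg region. With an area of at least 1000, 1 KO-higher FTneg region was left, at Sox21, also counted with a ChIP peak. The cover of gene bodies was added after seeing the data: 6 members at 80% of the body, and 5 under either of the other settings. The cause of these changes was not tested. Unknown depth, 1 library per subunit and unsettled names of 3 lists limit all counts.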

Other observations

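Accessibility regions beyond 100 kb whose nearest protein-coding gene was a member fell to Sox11, Sox4 and Sox9. A KO-higher FTneg region lay 183 kb from Sox11 (chr12:27150721-27151511, area 862, CHD4-labelled peak only), 1 lay 231 kb from Sox4 (chr13:28718048-28718840, area 687, RBBP4 and RBBP7 peaks) and 1 lay 584 kb from Sox9 (chr11:112197366-112198528, area 732, all 6 lists). Inside the windows, the KO-higher region farthest from a gene body was 2722 bp away, so no region sat near the 100 kb limit.

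Sox11 also had the WT-higher regions nearest to any member. Lists of both fractions named the same place 404 kb away: chr12:26930091-26930982 in FTneg (area 980) and chr12:26930130-26930780 in FTpos (area 840), under peaks of 5 ChIP lists. The KO-higher and the WT-higher regions nearest to Sox11 thus lay on the same side of the gene, beyond its 3' end, and outside the window.

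Besides the 5 members, the CHD4-labelled list covered 28 other genes over their whole body. These included Dlx2, a homeodomain gene removed in the KO, Gsx2, Olig2, Hes1, Pou3f2, Nrarp, Nog and Cited2, which were picked out after the values had been seen. At a minimum of 80% of the body, 82 genes (0.391%) were covered.

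The genes whose peak counts per list were nearest to those of a member, over the 6 lists, were Nr2e1 and Gcdh for Sox1 (nearest distance 0.387 on the log2 scale) and Meis1, Ostm1 and Zfp536 for Sox2 (0.654). For Sox21 they were Ctnna3, Brd3 and Brd3os (0.349), for Sox4 Ankrd23, Ankrd39 and Cnnm3 (0.552), for Sox11 Rap1gds1, Sh3gl3 and Myrip (0.416) and for Sox5 Macrod1, Tle3 and Npas3 (0.475). Likeness in counts ignores the size of the windows.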
